A study of Homo sapiens with 6 samples.

Results

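Interferon-stimulated and antigen presentation genes were followed in TC28a2, a human chondrocyte cell line, 48 h after the cells were transfected. The 51 genes were taken as a named list of human symbols, and all 51 were found among the 28395 Entrez gene IDs of the deposited count table. One group of 3 libraries came from cells carrying an overexpression vector for ZEB1, a zinc-finger transcription factor, and the other 3 libraries came from cells carrying a control vector. RNA was measured in bulk by DRUG-seq, a low-cost form of RNA-seq, in a study of senescent cells and ZEB1 in osteoarthritic cartilage and meniscus. All 6 libraries share the cell line and the transfection step. An untransfected sample was not analysed here, and transfected plasmid DNA can itself raise interferon-stimulated genes, so the levels below are levels in transfected cells. The share of cells that took up either vector is not given in the sources used here, and in bulk RNA fewer responding cells and less RNA per cell cannot be told apart.

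Interferons are secreted proteins that cells release when their sensors meet foreign or misplaced nucleic acid. They bind surface receptors and activate JAK kinases, and the resulting STAT and IRF complexes enter the nucleus and switch on interferon-stimulated genes. The complex that contains STAT2 and IRF9 binds the interferon-stimulated response element (ISRE), whereas interferon gamma acts mainly through the gamma-activated site (GAS). The induced proteins block viral RNA, viral entry and viral assembly, and a further group makes peptides, loads them on MHC class I molecules and shows them to T cells.

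The promoters of the genes were read from a RefSeq table (build GRCh38.p14) that gives, for each gene, 250 bases before and 50 after the annotated start, and 42 of the 51 genes were matched. The core of the ISRE, spelled GAAA, then any 2 bases, then GAAA, and searched on both strands, was present in 25 of the 42 promoters (59.5%), against 3.6% of the 27305 promoters of the same length. The GAS, spelled TTCNNNGAA and searched on both strands, was present in 11 of the 42 (26.2%), against 7.9% of all promoters, and in 4 promoters a GAS match overlapped an ISRE match. The E-box CACCTG, the sequence that ZEB1 is known to bind, was present on either strand in 8 of the 42 (19.0%), against 20.6% of all promoters. Matches are a description of these letters in these windows and not of binding. Other spellings of an element were not searched for.

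**Figure D1:**
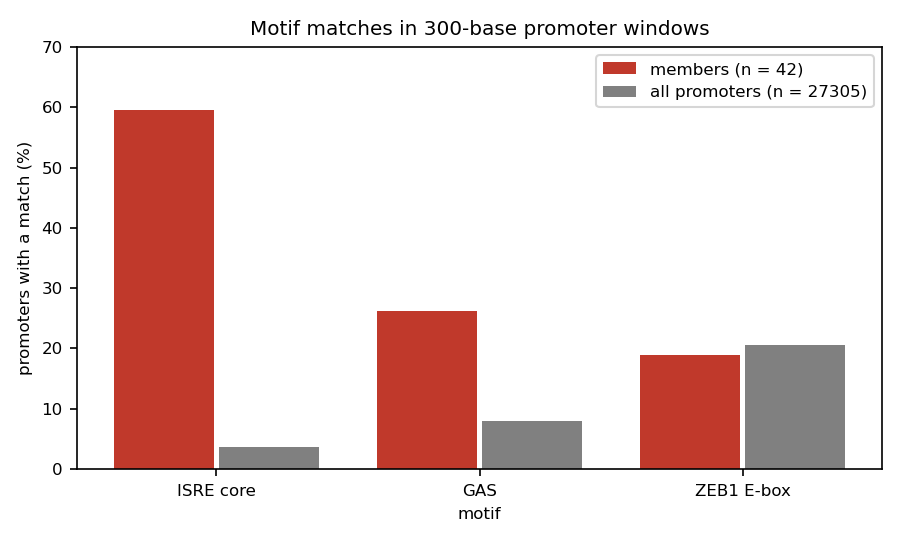
Share of promoter windows with at least 1 match to each of 3 motifs (y axis, percent), for the 42 matched interferon-stimulated and antigen presentation genes (red) and for all 27305 promoters (grey). The ISRE core stands at 59.5% against 3.6%, the GAS at 26.2% against 7.9% and the ZEB1 E-box at 19.0% against 20.6%.

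The 5 promoters below were chosen after the values were seen, because each holds an ISRE core while the genes differ in how their libraries lay. IFI44L and EPSTI1 were lower in every ZEB1 vector library than in every control, DDX60 was higher in every one, and ISG15 and B2M overlapped. Each is written 5′ to 3′ on the strand of its gene, and capitals mark the matches to the ISRE core on either strand.
IFI44L (chr1:78620198-78620497, plus strand): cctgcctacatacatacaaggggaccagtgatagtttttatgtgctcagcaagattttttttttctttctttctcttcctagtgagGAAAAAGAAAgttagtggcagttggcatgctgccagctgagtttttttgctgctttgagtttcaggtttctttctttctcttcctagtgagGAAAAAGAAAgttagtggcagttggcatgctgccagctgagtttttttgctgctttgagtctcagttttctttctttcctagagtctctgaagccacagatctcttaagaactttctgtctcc
EPSTI1 (chr13:42992192-42992491, minus strand): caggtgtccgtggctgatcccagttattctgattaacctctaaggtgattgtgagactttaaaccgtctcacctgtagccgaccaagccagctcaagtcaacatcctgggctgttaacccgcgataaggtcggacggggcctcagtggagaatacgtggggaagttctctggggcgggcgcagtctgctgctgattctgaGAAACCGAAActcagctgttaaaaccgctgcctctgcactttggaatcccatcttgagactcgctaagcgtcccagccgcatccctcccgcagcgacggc
DDX60 (chr4:168318703-168319002, minus strand): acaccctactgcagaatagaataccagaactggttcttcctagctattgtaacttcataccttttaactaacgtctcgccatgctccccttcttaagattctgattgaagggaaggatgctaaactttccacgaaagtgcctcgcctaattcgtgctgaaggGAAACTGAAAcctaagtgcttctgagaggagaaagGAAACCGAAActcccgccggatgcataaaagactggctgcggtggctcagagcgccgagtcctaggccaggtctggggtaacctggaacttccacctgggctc
ISG15 (chr1:1013247-1013546, plus strand): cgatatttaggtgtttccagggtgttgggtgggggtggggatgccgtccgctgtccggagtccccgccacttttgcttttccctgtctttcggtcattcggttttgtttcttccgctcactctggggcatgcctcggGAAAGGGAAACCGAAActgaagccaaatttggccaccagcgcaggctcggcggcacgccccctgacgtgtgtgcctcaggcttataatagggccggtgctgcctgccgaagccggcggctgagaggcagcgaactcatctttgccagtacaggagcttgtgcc
B2M (chr15:44711267-44711566, plus strand): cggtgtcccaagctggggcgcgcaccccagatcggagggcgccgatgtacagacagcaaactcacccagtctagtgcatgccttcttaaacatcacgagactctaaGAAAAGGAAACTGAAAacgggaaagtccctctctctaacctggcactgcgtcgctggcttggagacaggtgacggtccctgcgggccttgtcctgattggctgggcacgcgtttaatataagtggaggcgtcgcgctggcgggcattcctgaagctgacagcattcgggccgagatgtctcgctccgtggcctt
In B2M and ISG15 a pair of cores overlap in 1 run, in IFI44L and DDX60 the pair stands apart, and EPSTI1 holds 1. The E-box CACCTG was also present in the windows of EPSTI1, DDX60 and B2M, and not in those of ISG15 and IFI44L.

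The ZEB1 vector libraries were shallower than the controls, with 1277632, 1621270 and 3316228 counts in replicates 1, 2 and 3, against 5359200 to 5878640 counts in the control vector libraries. A floor of 3 counts stood for 2.67, 1.93 and 0.894 CPM in ZEB1 replicates 1, 2 and 3, against 0.481 to 0.547 CPM in the controls, where CPM is the count relative to the library total, scaled with edgeR's TMM factors. ZEB1 itself checked the labels, with 13805, 21844 and 23143 counts in the ZEB1 vector libraries, against 203, 114 and 131 in the controls. Of 11 chondrocyte markers SOX9 was the most counted, while COL2A1 had 0 counts in each ZEB1 library and 3, 0 and 8 in the controls, so that the defining cartilage matrix transcripts were nearly absent. The 9 leukocyte and macrophage markers summed to 9.77, 12.9 and 18.8 CPM in the ZEB1 libraries, against 16.7 to 21.2 CPM in the controls. CD68 was the most counted of them, with 6, 19 and 43 counts in the ZEB1 libraries, against 63, 52 and 86 in the controls. CSF1R, FCER1G and CD14 were counted in every control library. PTPRC, which defines leukocytes, had 2 counts in control replicate 1 and 0 in the other libraries, and TYROBP and CD3E were at 0 throughout. The 5 dendritic cell markers summed to 0 to 0.889 CPM in the ZEB1 libraries, against 0.911 to 2.09 CPM in the controls, with CLEC4C, FLT3 and CD1C at 0 in every library. ITGAX had 1, 0 and 0 counts in the ZEB1 libraries, against 7, 5 and 6 in the controls, and IRF8 had 6 counts in control replicate 1 only. The 5 endothelial markers summed without overlap to 8.36 to 8.89 CPM in the ZEB1 libraries, against 1.44 to 2.77 CPM in the controls, while CDH5 was at 0 in every ZEB1 library. PECAM1 gave 3.55, 7.72 and 6.55 CPM of it in the ZEB1 libraries, against 1.44, 1.09 and 1.79 CPM in the controls, and TEK gave 5.33 CPM (6 counts) in ZEB1 replicate 1 and was at 0 in the other libraries. The part of these markers in the results below was not tested.

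None of the interferon-stimulated and antigen presentation genes passed the test, in any role. Of the 51 genes, 36 had enough counts to be tested, and 0 of them reached an edgeR adjusted p of 0.05, where 0.00883% of all 11329 tested genes did (1 gene, ZEB1). At an unadjusted p under 0.05 there were 0 higher genes and 2 lower ones, HLA-E and IRF9, of the 36. Over all tested genes 5.83% were higher and 3.57% lower at that level, 9.4% in all. Limma-voom also called 0 of the 36, while calling 0.512% of all genes, and 1.36% with quality weights, where it again called 0 of the 36. DESeq2 gave an adjusted p to only 9 of the 36 genes and to 2324 of all genes. It called 0 of those 9, beside 7.49% of those 2324. With no filter on low counts 0 of 51 genes were called, beside 0.693% of all genes. A mean count of at least 20 and thinning to the smallest total each left 31 genes, with 0 called, beside 0.0102% and 0.0109% of all genes. Without ZEB1 replicate 3, 0 of 37 genes were called while 3.38% of all genes were. Without ZEB1 replicate 1 or 2, 0 of 40 and 0 of 39 were called, beside 0.00826% of all genes in each. Without control replicate 1, 2 or 3, 0 of 36, 0 of 37 and 0 of 35 were called, beside 0.00886%, 0.00881% and 0.00884%. Without ZEB1 replicates 1 and 2 together, 0 of 44 were called, beside 0.0154%. A log2 fold change is ZEB1 vector over control vector, so that a value below 0 is a lower level in the ZEB1 libraries, and its standard error (SE) is approximate. Whether the replicates are separate cultures is not stated, so p-values here reflect only how these samples spread, and that spread may be technical. The median log2 fold change of the 36 genes was -0.12, beside -0.01 for all tested genes. Over the genes fitted when single libraries were left out, it lay between -0.17 and -0.04.

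In the 36 tested genes the log2 fold change was below 0 in 24 (66.7%) and above 0 in 12, and over all tested genes it was below 0 in 51.5%. In 8 genes all 3 ZEB1 libraries lay below all 3 controls, which was 22.2% of the 36, beside 8.16% of all tested genes. These were IRF9, IFI6, IFI44L, EPSTI1, PARP14, PSMB9, HLA-B and HLA-E. In DDX60 and IFIT2 all 3 lay above, 5.56% of the 36, beside 6.96% of all tested genes. With RLE or upper-quartile scaling the same 8 and 2 genes stood apart. When only library size was scaled for (median of all genes -0.14) 11 lay below (30.6%) and 2 above (5.56%), beside 12.5% and 4.3% of all genes. Without ZEB1 replicate 1, 2 or 3 the genes below numbered 12, 10 and 11 (33.3%, 27.8% and 30.6%), beside 13.5%, 14.4% and 20.3% of all genes. The genes above then numbered 2, 4 and 9 (5.56%, 11.1% and 25%), beside 12.6%, 11.9% and 17.1%. Without control replicate 1, 2 or 3 there were 10, 9 and 8 below (27.8%, 25% and 22.2%), beside 11.2%, 12.9% and 12.2%. Those above were 3, 3 and 2 (8.33%, 8.33% and 5.56%), beside 9.47%, 11.4% and 10.2%. With ZEB1 replicate 3 as the lone ZEB1 library, 20 lay below (55.6%) and 6 above (16.7%), beside 28.2% and 27.3%. Among 15 well-counted genes (mean count 100 or more) 4 lay below (26.7%, beside 8.47% of all genes at that depth), namely IFI6, PSMB9, HLA-B and HLA-E. The genes were chosen together and share the same 6 libraries, so these shares are a description.

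**Figure D2:**
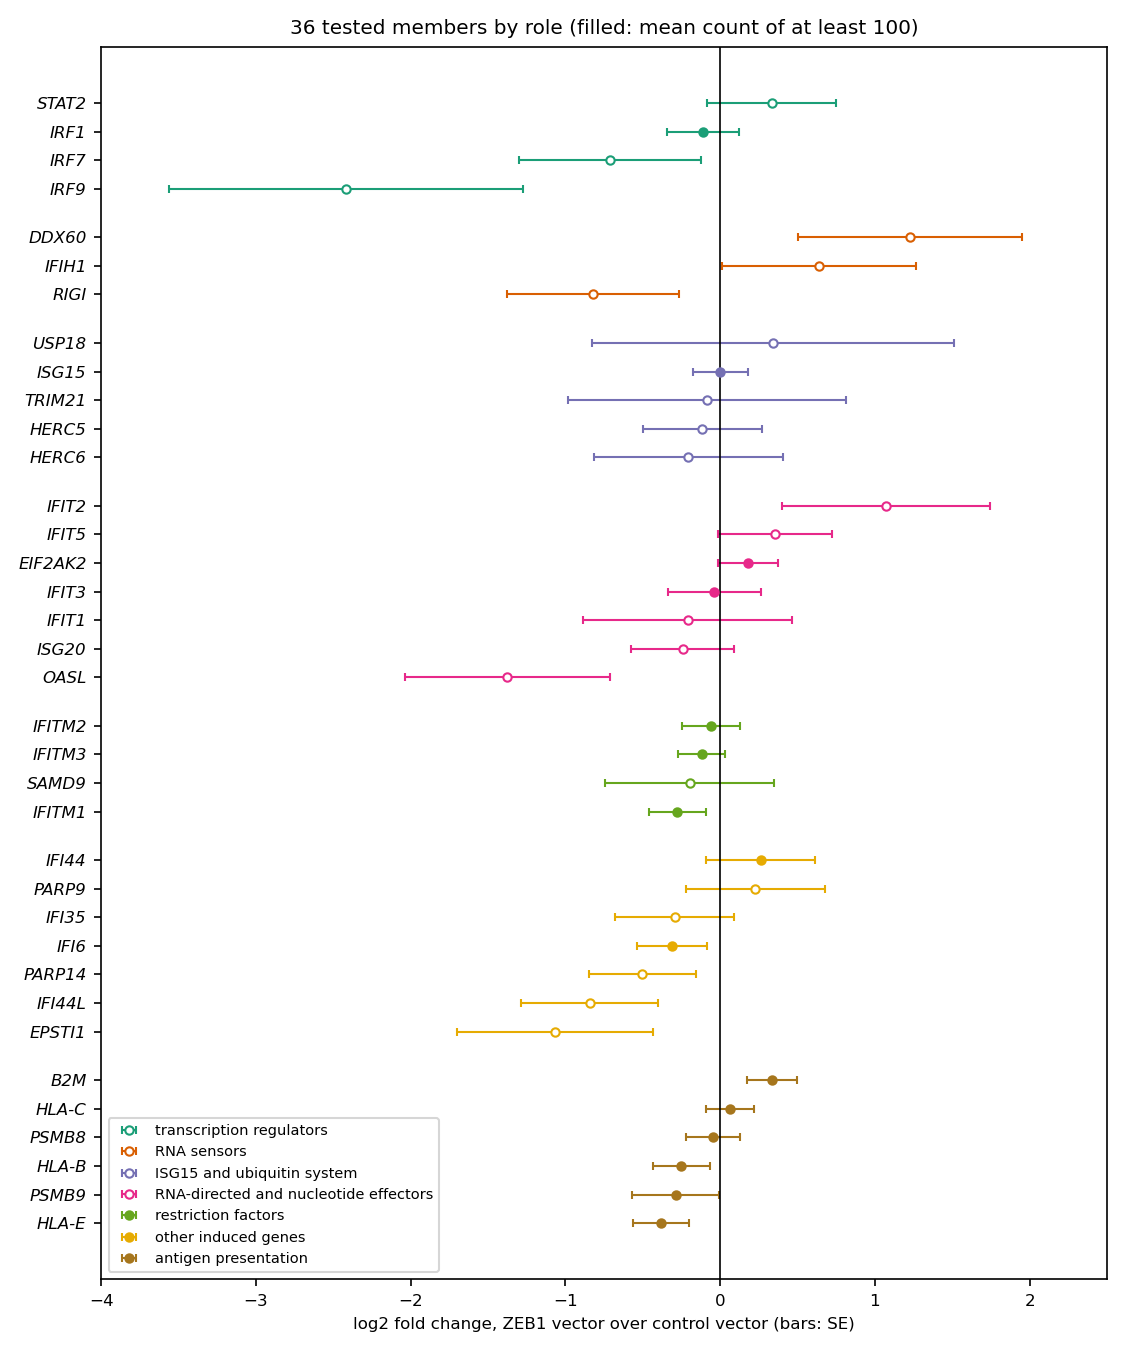
Log2 fold change (x axis, ZEB1 vector over control vector) of the 36 tested genes, by role, with bars of 1 standard error and filled points for a mean count of at least 100. IRF9 stands lowest at -2.42 and DDX60 highest at 1.23, both with wide bars, and 24 of the 36 points lie below 0.

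The 3 ZEB1 libraries differed among themselves in these genes. Relative to the mean of the controls, 30 of the 36 genes were lower in ZEB1 replicate 3 (83.3%), beside 48.8% of all tested genes in that library. In ZEB1 replicate 1 it was 17 of 36 (47.2%) and in replicate 2 it was 20 of 36 (55.6%), beside 53.4% and 51% of all tested genes. The median difference from the control mean was 0.12, -0.26 and -0.22 (log2 CPM) in ZEB1 replicates 1, 2 and 3, where all genes had -0.06, -0.01 and 0.01. The control libraries had medians of -0.07, 0.04 and 0.04 in replicates 1, 2 and 3. There 22, 15 and 16 of the 36 genes lay below the control mean (61.1%, 41.7% and 44.4%). Over all tested genes 49.7%, 49.2% and 48.3% did. Each control is part of the mean it is set against, which draws its differences toward 0. Replicate 3 was the deepest ZEB1 library and the one with the least ZEB1, 6894 CPM against 12270 and 14050 CPM in replicates 1 and 2, so that depth and the level of ZEB1 cannot be told apart. The spread of log2 CPM was wider among ZEB1 libraries than among controls in 29 of the 36 genes (80.6%), beside 78.5% of all tested genes.

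**Figure D3:**
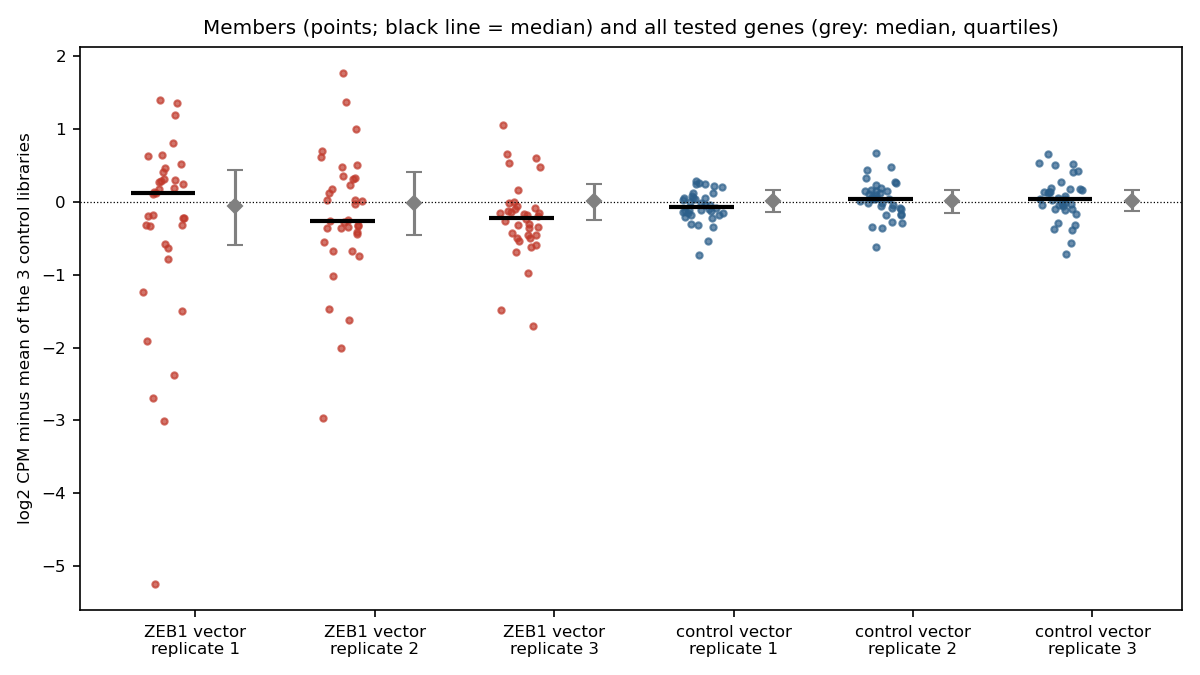
Difference of log2 CPM from the mean of the 3 control libraries (y axis) for each of the 36 tested genes (points) in each library (x axis, ZEB1 vector libraries in red, controls in blue), with the median of the genes as a black line and the median and quartiles of all 11329 tested genes in grey. In ZEB1 replicate 3 the points sit mostly below 0 (30 of 36), while in ZEB1 replicates 1 and 2 they spread widely on both sides.

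Of all counts, the 51 genes held 0.256%, 0.258% and 0.239% in ZEB1 replicates 1, 2 and 3, against 0.264%, 0.274% and 0.269% in control replicates 1, 2 and 3. The mean share was 0.251% ± 0.0105 in the ZEB1 libraries and 0.269% ± 0.00513 in the controls (SD, n = 3 each). B2M alone gave 36.8%, 38.5% and 31.4% of those counts in ZEB1 replicates 1, 2 and 3, against 27.7%, 31.2% and 28.6% in the controls. Without B2M, a split made after the values were seen, the share was 0.162%, 0.158% and 0.164% in the ZEB1 libraries, against 0.191%, 0.189% and 0.192% in the controls. These shares are of raw totals. On the TMM scale used for the other levels the direction of the mean turned for all 51 genes, but not without B2M. On that scale the 51 genes summed to 2912, 2687 and 2359.6 CPM in the ZEB1 libraries, against 2468, 2678 and 2576 CPM in the controls. The groups overlapped, with a mean of 2653 ± 278 CPM in the ZEB1 libraries and 2574 ± 105 CPM in the controls (SD, n = 3 each). Without B2M the sums were 1841, 1651 and 1619.9 CPM in the ZEB1 libraries, against 1786, 1842 and 1841 CPM in the controls, and overlapped too. Their mean was still lower in the ZEB1 libraries, 1704 ± 120 CPM against 1823 ± 32 CPM in the controls (SD, n = 3 each).

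At the top of the pathway, interferon ligand transcripts were not detected, with 8 of 9 ligand genes at 0 counts in all 6 libraries, IFNB1, IFNG and IFNL1 among them. A count of 0 allows up to the floor of 3 counts given above. The exception was IFNE, an epithelial type I interferon, with 0, 3 and 8 counts in the ZEB1 libraries and 4, 7 and 9 in the controls. Of 9 receptor and kinase genes 8 were tested, and 0 passed, with 4 higher and 4 lower in the fit and a median log2 fold change of 0.01. IFNGR2, the second chain of the interferon gamma receptor, had 111, 93.2 and 116 CPM in the ZEB1 libraries, against 102, 104 and 113 CPM in the controls. The groups overlapped, with a log2 fold change of 0.01 (SE 0.17, edgeR adjusted p = 0.990).

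IFNLR1, the specific chain of the interferon lambda receptor, is given because of its counts, after they were seen. There were 0 in each ZEB1 library, against 26, 1 and 32 in the controls. For the ratio of controls over ZEB1 libraries per total count, counting error alone gave an exact 95% lower limit of 5.64. That limit leaves out the spread between libraries and the picking of IFNLR1 by these counts, so it is not a test. Control replicate 2 held 1 count although its total was like that of the other controls, and IFNLR1 did not pass the filter on low counts. Of 6 genes that brake the signal, 5 were tested and 0 passed. PTPN2, a phosphatase of the JAK pathway, had a log2 fold change of 0.21 (SE 0.21, edgeR adjusted p = 0.814). SOCS3, a feedback inhibitor also picked after viewing its values, had 1, 14 and 74 counts in the ZEB1 libraries, against 55, 79 and 51 in the controls.

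Of the 3 RNA sensors, 2 had a log2 fold change above 0 and 1 below, and 0 passed. Their median of 0.64 ranged from 0.11 without ZEB1 replicate 1 to 0.98 without ZEB1 replicate 2. DDX60, a helicase linked to RIG-I signalling, had 8.89, 9.0 and 5.06 CPM in ZEB1 replicates 1, 2 and 3, against 3.05, 2.92 and 3.59 CPM in control replicates 1, 2 and 3. Each ZEB1 library exceeded each control, but on 10 to 17 counts, and the log2 fold change of 1.23 had an SE of 0.73 (edgeR adjusted p = 0.640). IFIH1, which encodes the double-stranded RNA sensor MDA5, had 15.1, 3.86 and 7.75 CPM in the ZEB1 libraries, against 4.17, 6.93 and 5.55 CPM in the controls, a log2 fold change of 0.64 (SE 0.63). The high value came from ZEB1 replicate 1, and replicate 2 lay below every control. RIGI, which encodes the sensor of RNA with a 5′ triphosphate, had 0, 24 and 50 counts in ZEB1 replicates 1, 2 and 3, or 0, 15.4 and 14.9 CPM, against 102, 79 and 166 counts, or 16.4, 14.4 and 27.1 CPM, in the controls. ZEB1 replicate 1 had none, although its floor of 3 counts is 2.67 CPM, while replicates 2 and 3 sat at the low end of the control range, and the log2 fold change was -0.82 (SE 0.56, edgeR adjusted p = 0.704).

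Upstream of interferon, 16 further genes of DNA and RNA sensing were followed, of which 11 were tested and 0 passed. Their median log2 fold change was -0.15. MAVS, the mitochondrial adaptor of the RNA sensors, had a log2 fold change of -0.15 (SE 0.20, edgeR adjusted p = 0.874). IKBKE and TRIM25, 2 of the 11, were lower at an unadjusted edgeR p under 0.05 and are named for that after their values were seen. Of all 44 tested pathway genes outside the 51, 2 were lower and 0 higher at that level. Over all tested genes 3.57% were lower and 5.83% higher. In 4 of the 44 all ZEB1 libraries lay below all controls and in 1 above, beside 8.16% and 6.96% of all tested genes. IKBKE, a kinase that phosphorylates interferon regulatory factors, had 4.44, 1.29 and 1.79 CPM in the ZEB1 libraries, against 7.70, 6.56 and 7.83 CPM in the controls. That was 5, 2 and 6 counts in the ZEB1 libraries, all below the controls in CPM (log2 fold change -1.65, SE 0.74, edgeR adjusted p = 0.499). TRIM25, the ubiquitin ligase that acts on RIG-I, had 24.9, 28.3 and 45.3 CPM in the ZEB1 libraries, against 47.5, 48.3 and 53.7 CPM in the controls. The groups did not overlap, ZEB1 replicate 3 lay close to the controls, and the log2 fold change was -0.56 (SE 0.26, edgeR adjusted p = 0.520).

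The transcription regulators that carry the signal into the nucleus lay below 0 in 3 of 4 fitted values (median -0.41, log2), and 0 passed. The median was -0.10 with a mean count of at least 20, which drops IRF9, and ranged from -0.69 without ZEB1 replicate 3 to -0.09 without control replicate 3. IRF9, the DNA-binding part of the complex that recognises the ISRE, had 1, 0 and 3 counts in ZEB1 replicates 1, 2 and 3, or 0.889, 0 and 0.894 CPM. The controls held 19, 15 and 29 counts, or 3.05, 2.73 and 4.73 CPM. All ZEB1 libraries lay below all controls, and summed over the groups the share of counts was 5.73-fold higher in the controls, for which counting error alone gave an exact 95% interval of 2.13 to 21.7. The fitted log2 fold change was -2.42 (SE 1.14, edgeR adjusted p = 0.528), and IRF9 had enough counts to be fitted in 14 of 18 alternatives. Every 50-base stretch of its longest coding transcript (100%) also occurs in another gene of the GENCODE annotation, while in the RefSeq annotation 0 other genes overlap IRF9. Which annotation was used and how such reads were counted is not stated, so its level is uncertain.

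IRF1, a regulator that interferon gamma induces quickly, had 37.3, 38.6 and 52.1 CPM in the ZEB1 libraries, against 46.5, 45.4 and 48.6 CPM in the controls. ZEB1 replicates 1 and 2 lay below the controls and replicate 3 above them (log2 fold change -0.11, SE 0.23, edgeR adjusted p = 0.927). STAT2, the partner of IRF9, had 15.1, 18.6 and 10.1 CPM in the ZEB1 libraries, against 10.1, 12.9 and 11.1 CPM in the controls, with a log2 fold change of 0.33 (SE 0.42, edgeR adjusted p = 0.866). IRF7, which amplifies type I interferon production, had a log2 fold change of -0.71 (SE 0.59). Its counts were 9, 3 and 26 in the ZEB1 libraries, so that the low point was replicate 2.

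Among the 12 RNA-directed and nucleotide effectors 7 were tested, with 3 higher and 4 lower and a median log2 fold change of -0.04, which was 0.12 without ZEB1 replicate 3 and 0.06 without control replicate 2. OASL, an OAS-like protein that enhances RIG-I signalling, had 1.78, 2.57 and 4.77 CPM in ZEB1 replicates 1, 2 and 3, against 4.65, 9.48 and 11.6 CPM in control replicates 1, 2 and 3. ZEB1 replicate 3 overlapped with control replicate 1 by a narrow margin, and the log2 fold change was -1.37 (SE 0.66, edgeR adjusted p = 0.535). IFIT2, an RNA-binding tetratricopeptide repeat protein, had 8.89, 7.72 and 8.04 CPM in the ZEB1 libraries, against 3.37, 6.02 and 2.29 CPM in the controls. The ZEB1 libraries were close together and all above the controls, on 10, 12 and 27 counts, with a log2 fold change of 1.07 (SE 0.67, edgeR adjusted p = 0.667).

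The other IFIT genes did not share that position. IFIT3 had 29.3, 31.5 and 19.4 CPM in the ZEB1 libraries, against 24.5, 28.8 and 27.4 CPM in the controls, with ZEB1 replicate 3 below every control and replicates 1 and 2 above (log2 fold change -0.04, SE 0.30, edgeR adjusted p = 0.984). IFIT1, which binds the end of foreign RNA, stood at -0.21 (SE 0.68, log2) and IFIT5 at 0.35 (SE 0.37). LIPA overlaps all 4 IFIT genes in the RefSeq annotation, and the strand setting of the counting is not given in the sources used here. EIF2AK2, which encodes the kinase PKR that stops translation on double-stranded RNA, had 87.1, 90.7 and 72.4 CPM in the ZEB1 libraries, against 85.5, 63.4 and 70.2 CPM in the controls (log2 fold change 0.18, SE 0.20, edgeR adjusted p = 0.841). ISG20, an exonuclease, had a log2 fold change of -0.24 (SE 0.33).

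The 5 untested effectors were scarcely counted. OAS1, which makes the second messenger of RNase L, had 1, 12 and 1 counts in ZEB1 replicates 1, 2 and 3, against 8, 4 and 1 in the controls. OAS2 had 4 counts in ZEB1 replicate 1 and 0 in the other libraries, and OAS3 had 0, 3 and 7 counts in the ZEB1 libraries, against 5, 3 and 7 in the controls. RSAD2, which encodes viperin, had 2 counts in ZEB1 replicate 2 and 6 in control replicate 3, and its neighbour CMPK2 had 2 counts in ZEB1 replicate 3. These counts were too few for the filter, and no direction is read from them.

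ISG15, a ubiquitin-like modifier that is attached to proteins after interferon, had 162, 163 and 113 CPM in ZEB1 replicates 1, 2 and 3, against 124, 152 and 157 CPM in control replicates 1, 2 and 3. The mean was 146 ± 28.5 CPM in the ZEB1 libraries and 144 ± 17.7 CPM in the controls (SD, n = 3 each), with ZEB1 replicate 3 lowest and replicates 1 and 2 highest. The log2 fold change was 0.0004 (SE 0.18), which changes sign with the scaling, and the difference was within the spread of the libraries. HERC5, the ligase that attaches ISG15, had 24.0, 12.9 and 13.4 CPM in the ZEB1 libraries, against 21.2, 17.9 and 13.9 CPM in the controls (log2 fold change -0.11, SE 0.38, edgeR adjusted p = 0.954). USP18, the protease that removes ISG15, had 0, 13 and 1 counts in the ZEB1 libraries, against 8, 13 and 18 in the controls, so that its log2 fold change of 0.34 (SE 1.17) rested on ZEB1 replicate 2. On the log2 scale TRIM21 stood at -0.08 (SE 0.90) and HERC6 at -0.21 (SE 0.61), and TRIM22 had 5 counts in control replicate 3 and 0 elsewhere.

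Of 8 restriction factors, 4 were tested, and all 4 had a log2 fold change below 0 that did not pass, between -0.28 and -0.06. Without ZEB1 replicate 2 their median was 0.03, against -0.16 with all libraries. The IFITM proteins sit in membranes and hinder the entry of viruses. IFITM1 had 89.7, 69.5 and 93.5 CPM in ZEB1 replicates 1, 2 and 3, against 91.9, 105 and 111 CPM in control replicates 1, 2 and 3. The groups met at ZEB1 replicate 3 and control replicate 1, and the log2 fold change was -0.28 (SE 0.18, edgeR adjusted p = 0.696). IFITM3 had 355, 264 and 296 CPM in the ZEB1 libraries, against 340.4, 344 and 307 CPM in the controls, with ZEB1 replicate 1 above all controls and replicates 2 and 3 below (log2 fold change -0.12, SE 0.15, edgeR adjusted p = 0.868). IFITM2 had a log2 fold change of -0.06 (SE 0.19). Of the 50-base stretches in the last 500 bases of the longest annotated transcripts, 75.6% of IFITM1, 21.3% of IFITM2 and 25.9% of IFITM3 occur in transcripts of other genes, mostly each other, so the split of reads among them is uncertain.

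MX1, a GTPase that traps viral nucleoproteins, was not tested and was picked after viewing its values. It had 0, 0 and 1 counts in the ZEB1 libraries, against 4, 10 and 12 in the controls. The share of counts was 9.47-fold higher in the controls, for which counting error alone gave an exact 95% interval of 1.56 to 388. That interval leaves out the spread between libraries and the picking of MX1 by these same counts, so it is not a test. Its relative MX2 had 0, 4 and 14 counts in the ZEB1 libraries, against 5, 5 and 6 in the controls. BST2, the tether that holds budding virus at the cell surface, had 4, 0 and 11 counts in the ZEB1 libraries, against 9, 2 and 3 in the controls. SAMD9 had a log2 fold change of -0.20 (SE 0.54), and its neighbour SAMD9L had too few counts to be tested.

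The remaining induced genes were lower in 5 of 7 tested, with a median log2 fold change of -0.31 (-0.04 without ZEB1 replicate 2), beside 51.5% lower of all tested genes. In 4 of the 7 all ZEB1 libraries lay below all controls, beside 8.16% of all tested genes. That count was picked out after the values were seen and describes few genes. IFI6, a small protein of mitochondrial and endoplasmic reticulum membranes, had 42.6, 38.6 and 39.9 CPM in ZEB1 replicates 1, 2 and 3, against 51.6, 46.9 and 51.4 CPM in control replicates 1, 2 and 3. Its mean was 40.4 ± 2.07 CPM in the ZEB1 libraries and 49.97 ± 2.70 CPM in the controls (SD, n = 3 each), a gap wider than either spread. The model shares its spread across genes, and there the log2 fold change was -0.31 (SE 0.23, edgeR adjusted p = 0.726).

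IFI44L had 9.77, 4.5 and 10.4 CPM in the ZEB1 libraries, against 17.3, 14.0 and 13.7 CPM in the controls. The log2 fold change was -0.84 (SE 0.44, edgeR adjusted p = 0.588). Its neighbour on chromosome 1, IFI44, did not share this, with 54.2, 47.6 and 15.5 CPM in the ZEB1 libraries, against 33.7, 25.2 and 34.8 CPM in the controls. There ZEB1 replicates 1 and 2 lay above all controls and replicate 3 below them, and the log2 fold change was 0.26 (SE 0.35, edgeR adjusted p = 0.874). EPSTI1, named for its induction in epithelial and stromal cell contact, had 0.889, 5.14 and 5.36 CPM in the ZEB1 libraries, against 7.22, 8.75 and 9.79 CPM in the controls. ZEB1 replicate 1 rested on 1 count, and the log2 fold change was -1.07 (SE 0.63, edgeR adjusted p = 0.641). PARP14, an ADP-ribosyltransferase, lay below the controls in every ZEB1 library (log2 fold change -0.50, SE 0.35), while its relative PARP9 overlapped (0.23, SE 0.45).

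**Figure D4:**
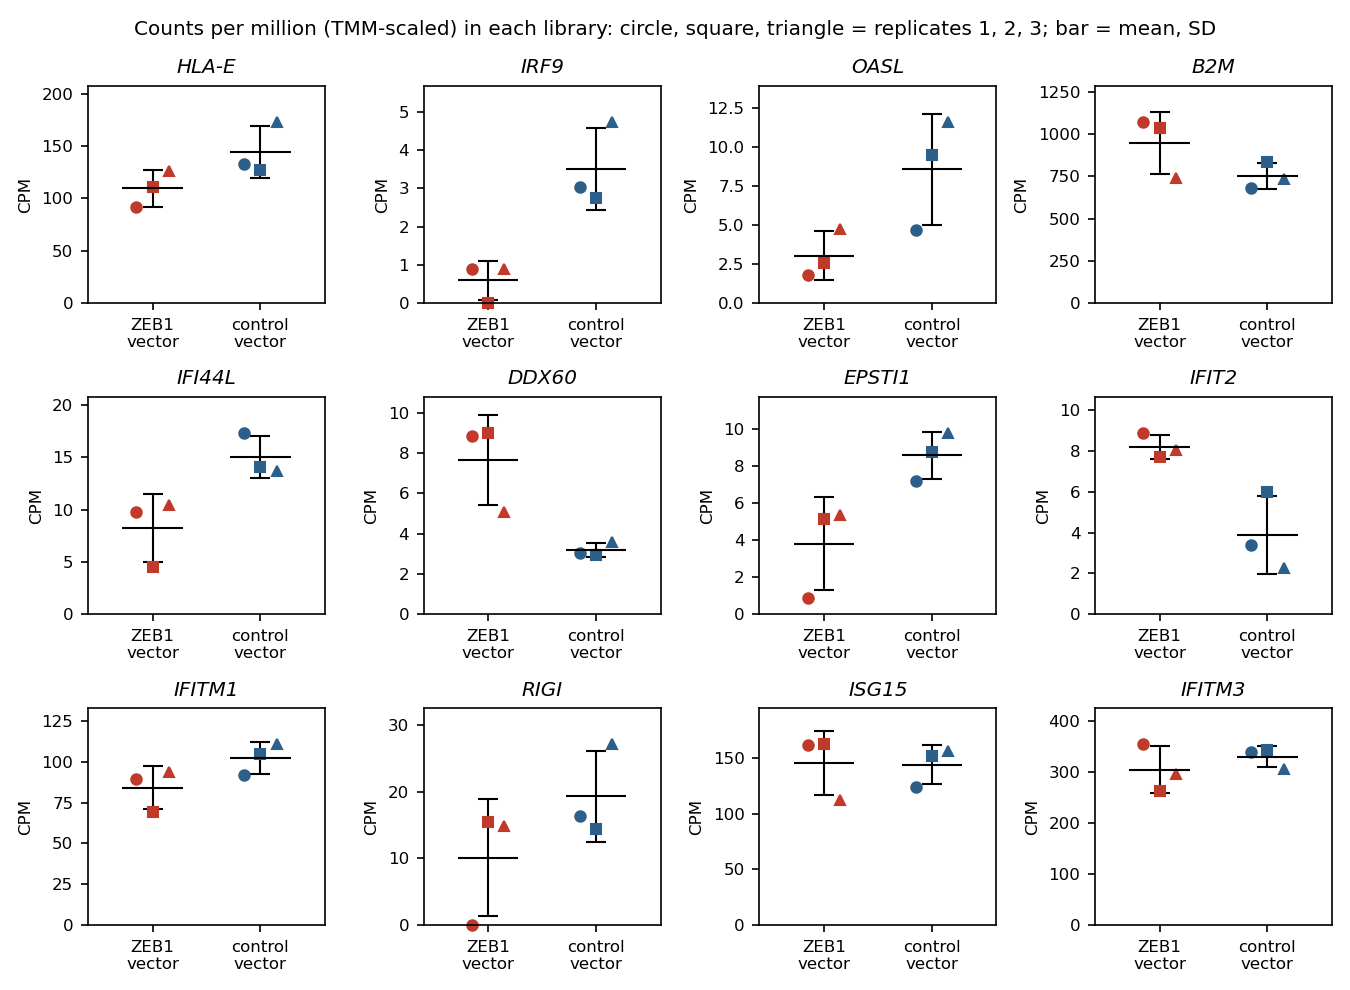
CPM (y axis, TMM-scaled, from 0) in each ZEB1 vector library (red) and control vector library (blue) for the 10 tested genes with the smallest unadjusted p and for ISG15 and IFITM3, with replicates 1, 2 and 3 as circle, square and triangle and the mean and SD in black. HLA-E, IRF9, IFI44L and EPSTI1 show 3 ZEB1 libraries below the controls, DDX60 and IFIT2 show 3 above, and the other 6 genes overlap.

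Within antigen presentation, 6 of 7 genes were tested, 2 above 0 and 4 below with a median log2 fold change of -0.15 (0.03 without ZEB1 replicate 3), and 0 passed. B2M, the light chain that every class I molecule needs, had 1071, 1035 and 739.7 CPM in ZEB1 replicates 1, 2 and 3, against 683, 836 and 736 CPM in control replicates 1, 2 and 3. ZEB1 replicates 1 and 2 lay above all controls and replicate 3 among them, and the log2 fold change was 0.33 (SE 0.16, edgeR adjusted p = 0.543). Without ZEB1 replicate 3 it was 0.48 (edgeR adjusted p = 0.0699), and with ZEB1 replicate 3 as the only ZEB1 library it was -0.03, so the value rested on the 2 shallow libraries.

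HLA-E, a class I molecule that presents leader peptides to natural killer cells, had 91.5, 111 and 126 CPM in ZEB1 replicates 1, 2 and 3, against 132, 127 and 173 CPM in control replicates 1, 2 and 3. All ZEB1 libraries lay below all controls, the nearest pair at 126 and 127 CPM. The log2 fold change of -0.38 (SE 0.18) had an edgeR adjusted p of 0.523. HLA-B, a classical heavy chain, had 80.9, 136 and 132 CPM in the ZEB1 libraries, against 141.5, 141 and 137 CPM in the controls. ZEB1 replicate 1 stood far below the rest, and replicates 2 and 3 lay just under the controls (log2 fold change -0.25, SE 0.18, edgeR adjusted p = 0.732). HLA-C, the other classical chain followed here, had 278, 228 and 211 CPM in the ZEB1 libraries, against 223, 247 and 212 CPM in the controls, with overlap and a log2 fold change of 0.07 (SE 0.15, edgeR adjusted p = 0.934). HLA genes vary between people and cell lines and resemble each other, so how reads were split among them is uncertain.

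The immunoproteasome subunits PSMB8 and PSMB9 replace the constitutive subunits PSMB5 and PSMB6 when cells meet interferon. PSMB9 had 24.9, 24.4 and 27.4 CPM in the ZEB1 libraries, against 28.9, 29.9 and 35.4 CPM in the controls, without overlap (log2 fold change -0.29, SE 0.28, edgeR adjusted p = 0.815). PSMB8 had 186, 125 and 130.2 CPM in the ZEB1 libraries, against 140.0, 166 and 145 CPM in the controls, and overlapped (log2 fold change -0.05, SE 0.18). The ratio of PSMB8 to PSMB5 counts was 0.365 ± 0.0420 in the ZEB1 libraries and 0.399 ± 0.0181 in the controls (SD, n = 3 each, two-sided exact permutation p = 0.3). For PSMB9 to PSMB6 it was 0.0646 ± 0.0107 in the ZEB1 libraries and 0.0817 ± 0.0102 in the controls (exact permutation p = 0.2), and for PSMB10 to PSMB7 it was 5.27 ± 2.55 in the ZEB1 libraries and 3.72 ± 0.797 in the controls (exact permutation p = 0.5). Over these 3 ratios, chosen after the values were seen, the adjusted p was 0.45, 0.45 and 0.5, and 3 libraries against 3 cannot go below an exact p of 0.1. TAP1, which pumps peptides to the class I molecules, had 1, 9 and 0 counts in the ZEB1 libraries, against 12, 4 and 2 in the controls, and was not tested. PSMB8-AS1 overlaps PSMB8 and TAP1 in the RefSeq annotation. Of the 50-base stretches of the PSMB9 transcript, 12.1% also occur in PSMB8-AS1 (0.0% in the last 500 bases). How such reads were counted is not stated, so these levels and ratios are uncertain.

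The wider peptide-loading set had 16 genes, all tested, with 8 higher and 8 lower, a median log2 fold change of -0.03 and 0 that passed. CALR, the chaperone calreticulin, had a log2 fold change of -0.25 (SE 0.15, edgeR adjusted p = 0.637), and its ZEB1 libraries all lay below the controls. The proteasome activator subunit PSME2, named after its values were seen, had 204, 206 and 200.5 CPM in the ZEB1 libraries, against 159, 181 and 166 CPM in the controls (log2 fold change 0.27, SE 0.15, edgeR adjusted p = 0.605). The 3 constitutive subunits had log2 fold changes of 0.06 to 0.09, with PSMB6, the most counted, at 0.06 (edgeR adjusted p = 0.936). Of 6 class II presentation genes 1 was tested, with HLA-DRA at 0 counts in every library. The tested gene, HLA-DPA1, had 12, 11 and 8 counts in the ZEB1 libraries, against 19, 7 and 24 in the controls (log2 fold change 1.2, SE 0.85, edgeR adjusted p = 0.715). Over all 65 pathway genes outside the 51, 44 were tested, 24 higher and 20 lower in the fit, with a median of 0.02. All ZEB1 libraries lay below all controls in 4 of the 44, CALR among them, beside 8.16% of all tested genes. They lay above in 1, PSME2, beside 6.96%.

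The chemokines CXCL10 and CXCL11, which draw T cells to sites of interferon action, had 0 counts in each ZEB1 library. CXCL10 had 0, 0 and 4 counts and CXCL11 0, 2 and 0 counts in the controls. Both are overlapped by ART3 in the RefSeq table, and their counts were too few to be tested. In all, 15 of the 51 genes had too few counts to be tested, with 2 to 38 counts each over the 6 libraries. Among them IFI27 had 1, 2 and 7 counts in the ZEB1 libraries, against 17, 10 and 0 in the controls, and XAF1 had 1, 1 and 15 counts in the ZEB1 libraries, against 4, 5 and 12 in the controls.

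Set against the promoter motifs, the 19 tested genes with an ISRE core had a median log2 fold change of -0.11, and the 11 without one -0.21. With a GAS the median was -0.29 (7 genes), and without one -0.08 (23 genes). The 7 tested genes with an E-box CACCTG had a median of -0.05, and the 23 without one -0.12. Over all tested genes with a promoter in the table these medians were 0.04 with and -0.02 without an ISRE core, 0.02 with and -0.02 without a GAS, and -0.01 with and -0.02 without the E-box. These are descriptions of few genes. A gene without a match lacks that exact spelling in its window, which does not show that it lacks a response element.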

How the data were processed

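RNA was measured by DRUG-seq in 3 ZEB1 vector and 3 control vector samples of TC28a2 cells, 48 h after transfection. The deposited values are whole-number read counts per Entrez gene ID, without normalization by the authors. Per the submitters' processing notes, the tools were HISAT2, featureCounts and Subread and the build was GRCh38, with no version stated. For the annotation, the strand setting and molecular identifiers, the value is not given in the sources used here. In the RefSeq annotation another gene overlaps 16 of the 36 tested genes, so how reads were assigned there is uncertain. Symbols were matched for 27745 of 28395 IDs, and 650 were not matched. Counts were fitted with edgeR 4.0.16 (TMM, filterByExpr, robust quasi-likelihood test, group only) in R 4.3.3, and p-values were adjusted by Benjamini-Hochberg over 11329 genes. DESeq2 1.42.0 (its independent filtering leaves many genes without an adjusted p) and limma 3.58.1 (voom) were alternatives, with other scalings, filters, thinning, a replicate block and left-out libraries. Counting intervals and the floor of 3 counts cover counting error only. The intervals leave out the spread between libraries and are not a test. Replicate libraries were compared by chi-square per degree of freedom, which was at least 6.3 for each pair within a group, so none was counted as a duplicate.

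The pipeline was tested on simulated data for ZEB1 vector against control vector. edgeR recovered 45% of 200 genes changed 2-fold among 11265 genes, and 86% of 200 changed 4-fold among 11273 genes. The changed genes all had a mean count of at least 20, and both groups were given the same spread. In the data some tested members had fewer counts, and 78.5% of all tested genes spread wider among ZEB1 libraries. The recovery may therefore be too high for these genes. The 51 genes and the pathway lists were chosen with earlier results of these data known. Genes named by rule were the 10 tested members with the smallest unadjusted p, the 2 most counted in each role and the most counted of each pathway list. Other genes given with values were named after these were seen.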

Additional observations from a re-analysis of the deposited data

How the results depend on the processing

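The interferon-stimulated and antigen presentation genes had 0 calls at an adjusted p of 0.05 in the edgeR fit and in the alternatives run, which covered 30 to 51 of them, except that DESeq2 gave an adjusted p to only 9. The number of all genes called was 1 in the edgeR fit, 127 with no filter on low counts, 174 with DESeq2, 58 with limma-voom, 154 with quality weights and 2 without ZEB1 replicates 1 and 2. Over single left-out libraries it ranged from 1 to 409, the 409 being without ZEB1 replicate 3. The count of fitted genes of the 51 at an unadjusted p under 0.05 and higher was 0, and it was 1 with RLE, no filter, a mean count of at least 20, thinning, DESeq2, limma-voom and quality weights (0 to 2 over left-out libraries). The count that was lower was 2, and it was 1 with RLE, upper-quartile scaling, a mean count of at least 20, the replicate block, DESeq2, without ZEB1 replicates 1 and 2, and with HLA and IFITM genes left out. It was 5 with library size only, 0 with both forms of limma-voom, and 0 to 3 over left-out libraries.

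Library size as the only scaling moved the median of all genes from -0.01 to -0.14 and that of the 36 genes to -0.26. The split of all genes at an unadjusted p under 0.05 was then 347 higher and 807 lower, beside 660 and 405. The antigen presentation median was -0.28 with library size only, -0.0678 with no filter and -0.0451 with HLA and IFITM genes left out (-0.18 to 0.0291 over left-out libraries). The median of RNA-directed effectors was 0.31 with no filter, that of RNA sensors -0.18 after thinning, and that of other induced genes -0.38 to -0.0428 over left-out libraries. The pathway median outside the 51 genes was -0.10 with library size only, -0.0477 with quality weights and -0.12 without ZEB1 replicates 1 and 2 (-0.0825 to 0.0487 over left-out libraries). The difference in the share of counts was -0.0300 percentage points without ZEB1 replicates 1 and 2, and 0.000922 with HLA and IFITM genes left out (-0.0212 to -0.0117 over left-out libraries).

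Signs turned for genes near 0. ISG15 was -0.14 with library size only, -0.0238 with no filter, -0.0623 with limma-voom and -0.0016 with quality weights. HLA-C was -0.0750 with library size only and -0.0193 after thinning, where HERC5 was 0.0369 and IFITM3 0.0269, and IFI44 was -0.20 with limma-voom. Without ZEB1 replicates 1 and 2, B2M was -0.0292, IRF1 0.15, STAT2 -0.17, ISG15 -0.36, EIF2AK2 -0.0204, IFI44 -1.02 and HLA-C -0.11. Over left-out libraries ISG15 ranged from -0.11 to 0.16, HLA-C from -0.0582 to 0.14, HERC5 from -0.42 to 0.0353, IFI44 from -0.0697 to 0.69 and IFIT3 from -0.20 to 0.17. The cause was not tested. In all, 344 values of single genes kept their sign and side of the threshold, and 27 turned.

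Same-numbered replicates did not deviate together over all tested genes (correlations -0.032, -0.009 and 0.009). Differently numbered ones had correlations of -0.048 to 0.046. With 3 samples per group this cannot show whether the numbers pair the samples. With a replicate block, 1 gene was called, the pathway median was -0.0395 and ISG15 was -0.0058. The 2 alternatives without ZEB1 replicates 1 and 2 and without HLA and IFITM genes were chosen after seeing the data. The lone ZEB1 library was then assumed to vary like the controls. Too few counts left 15 genes untested, and the part of depth and of low expression in this was not tested.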
